A study of Mus musculus with 88 samples.

Results

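The bed nucleus of the stria terminalis (BNST) of C57BL/6Crl (B6) mice that were susceptible to chronic social defeat stress (CSDS) was compared with that of same-strain control mice. In CSDS a male mouse meets a new aggressor each day and then lives beside it behind a perforated wall, while control mice are housed beside another control mouse. A defeated mouse was labelled susceptible or resilient by the study from its social avoidance after the last defeat, so the susceptible group was chosen by behavior and not assigned. The 10 libraries were those with BNST tissue, the B6 strain and the label control (5 mice) or susceptible (5 mice), out of 28 BNST libraries and 88 libraries in the series. The other BNST libraries came from resilient B6 mice and from control, resilient and susceptible mice of another inbred strain, DBA/2NCrl (D2). All 28 BNST libraries were fitted together, so the spread between D2 mice also entered the tests. D2 mice were used in a comparison between strains as well. All mice were males aged 8 weeks, belonged to an inbred strain, and were dissected 6 to 8 days after the last defeat. Each library came from 1 mouse.

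The BNST belongs to the extended amygdala and joins limbic input to hypothalamic and brainstem output, with a known role in sustained anxiety and stress responses. Most of its neurons are GABAergic, and many release neuropeptides. Fibers of the stria terminalis and the nearby anterior commissure bring myelin into a dissected block, which also borders the striatum, the septum and the lateral ventricle. In a block of tissue, fewer cells of a type and less RNA per cell cannot be told apart.

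The BNST libraries held 11825757 to 25793910 counted reads. Susceptible replicate 3 stood apart from the other 9 libraries. It had the most reads, 25.3% of them from the 12S and 16S rRNAs of mitochondria against 5.81% to 18.2% in the others, the lowest factor of the trimmed mean of M-values (TMM, the scaling used between libraries) at 0.656 against 0.819 to 1.22, and a position of 101.5 on the first component of log2 expression, where the others lay between -30.0 and 37.5. Where this mouse changed the number of called genes in a list, the number without it is also given.

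**Figure D1:**
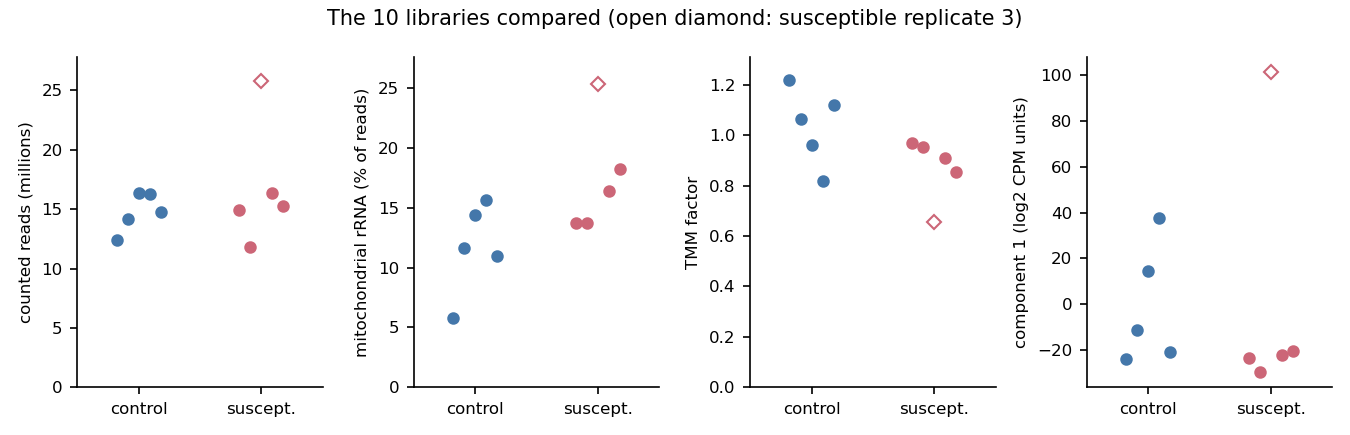
Each point is 1 mouse, control in blue and susceptible in red, for counted reads, the percent of reads in mitochondrial rRNA, the TMM factor and the position on the first component of log2 normalized expression over the 10 libraries. The open diamond is susceptible replicate 3, at 25.3% mitochondrial rRNA and a TMM factor of 0.656.

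Reads of mitochondrial rRNA made up 11.7% ± 3.81 (SD, n = 5) of the control libraries and 17.4% ± 4.77 (SD, n = 5) of the susceptible libraries, and the ranges overlapped (two-sided exact permutation test, p = 0.0556, smallest possible p = 0.00794). The TMM factors averaged 1.04 ± 0.154 (SD, n = 5) in controls and 0.868 ± 0.127 (SD, n = 5) in susceptible mice (exact permutation p = 0.0952). Levels below are CPM, the reads of a gene relative to its library's total, scaled by these factors, and log2 fold changes are susceptible minus control with their standard error.

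Across 17515 genes that reached 1 CPM in 6 or more of the 28 libraries, no gene differed between susceptible and control mice at an adjusted p under 0.05 (edgeR quasi-likelihood test, Benjamini-Hochberg adjustment, percent called 0.0, smallest adjusted p = 0.559). DESeq2 and limma with voom also called 0 genes. At an unadjusted p under 0.05, 1115 genes or 6.37% differed, of which 671 (3.83% of all genes) were higher and 444 (2.53%) lower in susceptible mice. With library totals alone as the scaling, the same count was 106 higher and 2248 lower, and the median of all genes moved by -0.26 on the log2 scale. Standard errors of the log2 fold changes had a median of 0.26. The genes and groups below are therefore described by their size and their unadjusted results, and none of them passed the adjusted test in all 10 mice. Libraries had been prepared in 2 sets, with 3 controls and 2 susceptible mice in the first, and a fit with the set as a term gave 0 genes, with 668 higher and 413 lower at an unadjusted p under 0.05.

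Without susceptible replicate 3, 2 genes (0.0114%) passed. These were Scoc (chr8:83430084-83458391), which encodes a short coiled-coil protein of the Golgi, and Auh (chr13:52835119-52929681), a mitochondrial enzyme of leucine breakdown that also binds AU-rich RNA. The level of Scoc was 55.5, 53.6, 54.0, 53.6 and 48.9 CPM in the 5 controls and 84.5, 95.8, 30.4, 92.1 and 81.2 CPM in the 5 susceptible mice. Replicate 3 lay below every control and the other 4 susceptible mice above every control. The log2 fold change was 0.53 ± 0.19 (adjusted p = 0.692) with all mice and 0.73 without replicate 3 (edgeR adjusted p = 0.0427). Auh had the same arrangement, at 43.4, 42.6, 40.0, 40.6 and 53.3 CPM in controls and 71.3, 65.5, 29.5, 73.3 and 81.8 CPM in susceptible mice. Its log2 fold change was 0.55 ± 0.18 (adjusted p = 0.692), and 0.73 without replicate 3 (edgeR adjusted p = 0.0445). Both genes were chosen after their values were seen. Without this mouse 2001 of 17482 genes (11.4%) had an unadjusted p under 0.05, 989 (5.66%) higher and 1012 (5.79%) lower, and 852 of the 1115 genes of the full comparison were among them in the same direction.

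**Figure D2:**
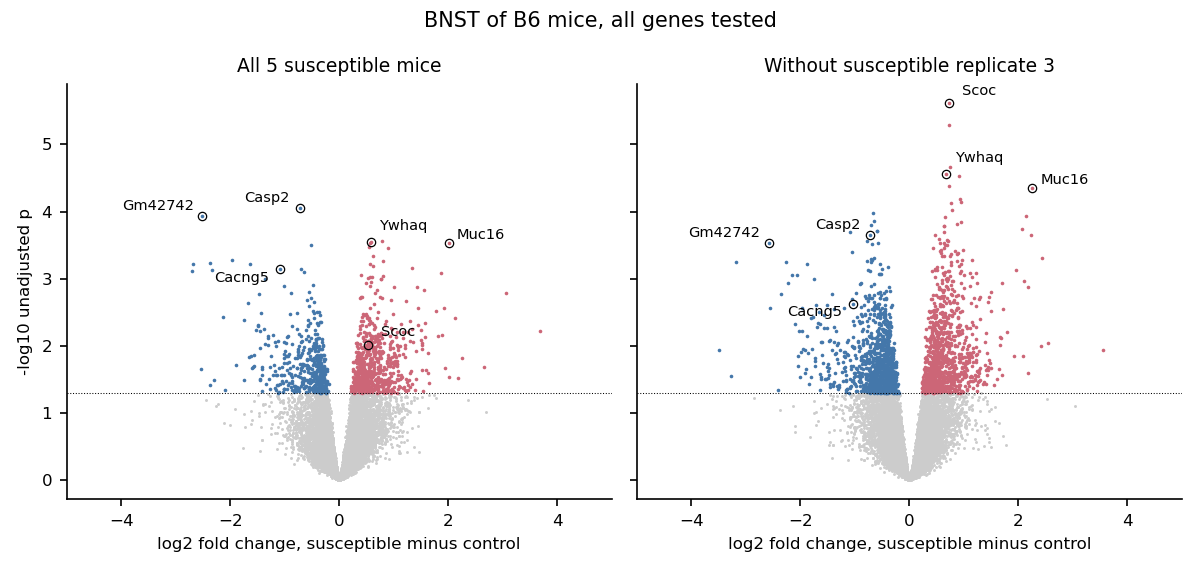
Each point is a gene, with the log2 fold change (susceptible minus control) on the horizontal axis and the -log10 of the unadjusted p on the vertical axis, with all mice (left) and without susceptible replicate 3 (right). Genes above the dotted line, the unadjusted threshold, are red where higher and blue where lower in susceptible mice, 671 and 444 on the left and 989 and 1012 on the right.

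Among genes of at least 1 on the mean log2 CPM scale, the lower side was led by Casp2 (chr6:42264985-42282508), which encodes the apoptotic protease caspase-2. Casp2 had 14.8, 12.4, 13.2, 9.39 and 14.6 CPM in controls and 8.94, 6.85, 7.81, 7.79 and 7.78 CPM in susceptible mice. Every susceptible mouse lay below every control. The log2 fold change was -0.72 ± 0.16 with a 95% interval of -1.04 to -0.40 (edgeR adjusted p = 0.559), and it was -0.72 without replicate 3. In resilient mice the level was 11.7 ± 1.44 CPM (mean ± SD).

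Cacng5, which encodes a transmembrane auxiliary subunit of AMPA receptors, had 19, 22.8, 10.3, 17.4 and 15.6 CPM in controls and 8.04, 7.03, 7.04, 9.81 and 8.02 CPM in susceptible mice. The groups did not overlap, although control replicate 3 came within 1 CPM of the highest susceptible mouse. Its log2 fold change was -1.09 ± 0.28 (adjusted p = 0.559). Mief1, an adaptor that recruits the fission protein Drp1 to mitochondria, differed by -0.51 ± 0.12, and Noc4l, a nucleolar protein of ribosome assembly, by -0.70 ± 0.18. Further genes among the smallest p-values were Mlx (log2 fold change -0.65 ± 0.17), a partner of the glucose-sensing transcription factor ChREBP, Aar2 (-0.56 ± 0.16), a factor of spliceosome assembly, Sppl3 (-0.52 ± 0.15), a protease of the Golgi, Exog (-0.59 ± 0.17), a mitochondrial nuclease, and Nadk (-0.47 ± 0.14), NAD kinase. Of the lower genes named here, Exog was the one whose groups overlapped. In the whole table, 143 genes (0.816%) had every susceptible mouse below every control.

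On the higher side, Ywhaq, a 14-3-3 adaptor protein of neurons and other cells, had 84.1, 78.3, 91.7, 70.2 and 90.5 CPM in controls and 139, 118, 90.1, 151 and 121 CPM in susceptible mice. Susceptible replicate 3 lay within the control range and the other 4 above it. The log2 fold change was 0.58 ± 0.14 (adjusted p = 0.559) and 0.68 without that mouse. Mfap1a, a protein of the spliceosome, was the tightest of these genes, with 14.4, 13.9, 14.7, 13.6 and 12.7 CPM in controls and 20.6, 22.4, 19.3, 20.2 and 19.4 CPM in susceptible mice. All susceptible mice lay above all controls, at a log2 fold change of 0.56 ± 0.14.

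Rac1, a small GTPase that organizes actin in dendritic spines and in myelinating glia, had 177, 190.2, 186, 161 and 187 CPM in controls and 240.4, 248, 199.6, 255 and 251 CPM in susceptible mice. The groups did not overlap and the log2 fold change was 0.41 ± 0.11 (adjusted p = 0.559). Tma7, a small protein associated with translation, differed by 0.91 ± 0.22, Tmem184c by 0.56 ± 0.14 and the actin-binding Cald1 by 0.62 ± 0.16, all without overlap. Atp5h, a subunit of mitochondrial ATP synthase, differed by 0.79 ± 0.19, the ribosomal protein gene Rpl22 by 0.56 ± 0.14, and Minos1, which shapes the cristae of mitochondria, by 0.61 ± 0.15. In these last 3 genes at least 1 susceptible mouse lay within the control range. Susceptible mice lay above every control in 129 genes (0.737%).

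The product of fold change and -log10 p, by which the study ranks genes, was highest for Gh, Prg4 and Muc16 and lowest for Gm42742, Gm18860 and Gm14066. All had low counts in most mice, while Prg4 reached 23.9 and 19.9 CPM in 2 susceptible mice. Muc16 (mucin 16) had 0.597, 0.597, 0.447, 0.526 and 0.423 CPM in controls and 3.26, 2.1, 0.651, 2.22 and 2.31 CPM in susceptible mice. It was higher in each susceptible mouse than in any control, at 2.01 ± 0.48 on the log2 scale (adjusted p = 0.559). Against the 5 resilient mice, with 0 to 0.389 CPM, Muc16 was the 1 gene (0.00571%) that passed the adjusted test in susceptible mice (log2 fold change 3.36 ± 0.54, edgeR adjusted p = 0.0234). That call was lost without susceptible replicate 1, 2, 4 or 5. Gh (growth hormone) had 0.332, 0.133, 0.192, 0 and 0 CPM in controls and 1.8, 0.445, 2.43, 0 and 4.32 CPM in susceptible mice, and Prg4, a lubricating proteoglycan, had 0.929, 1.26, 0.447, 0.902 and 2.2 and 0.624, 2.49, 23.9, 1.88 and 19.9 CPM. In both genes high values came from a few susceptible mice and the groups overlapped. Gm42742, an uncharacterized gene, was at 1.2, 1.66, 1.15, 1.28 and 0.726 CPM in controls and 0.0693, 0.623, 0.237, 0.134 and 0 CPM in susceptible mice.

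**Figure D3:**
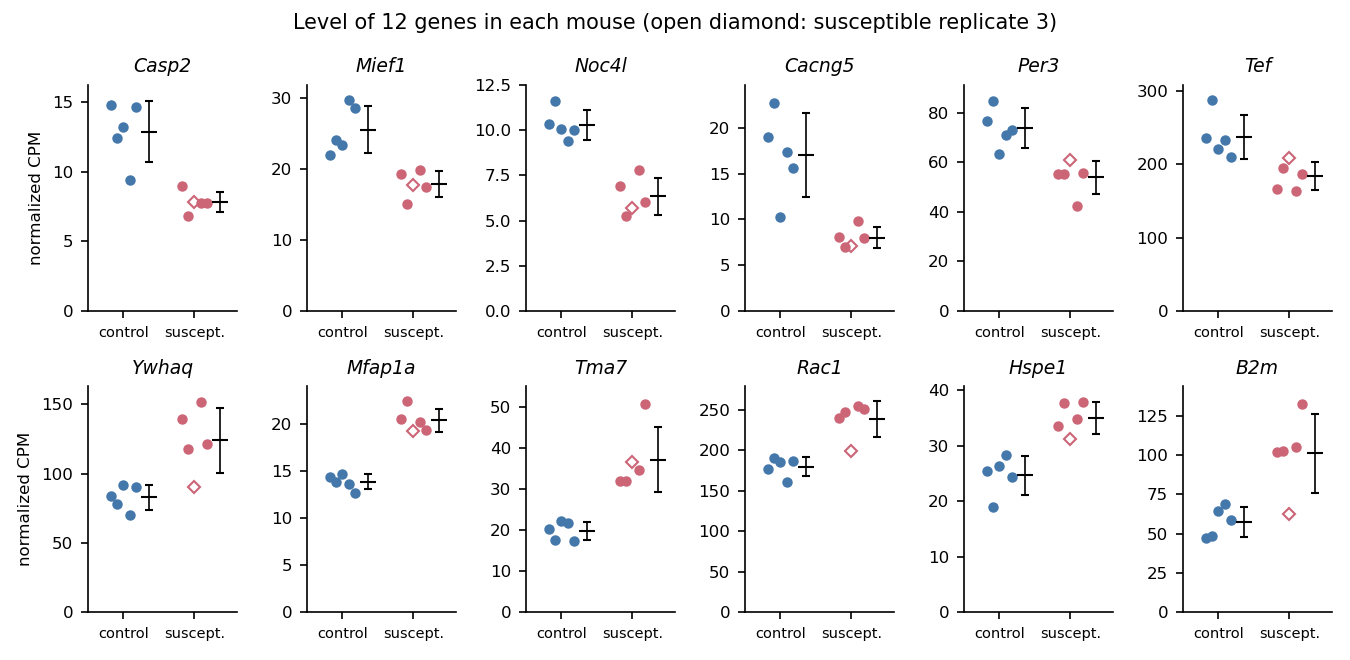
Normalized CPM of 12 genes in each mouse, control in blue and susceptible in red, with the mean and SD in black. Susceptible mice lie below controls in the upper row, and in the lower row above them except for replicate 3 (open diamond) in Ywhaq and B2m.

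Mature oligodendrocytes (OLGs) wrap axons in myelin and arise from precursors (OPCs) that persist in the adult brain. All 26 genes of the mature OLG list drawn up by the study had a positive log2 fold change, with a median of 0.34 against 0.01 over all genes. Of these, 5 were higher at an unadjusted p under 0.05, against 3.83% of all genes, and 0 were lower.

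Bcas1, a marker of OLGs that are starting to myelinate, had 141, 134, 289, 301 and 332 CPM in controls and 508, 278, 389.9, 550.3 and 492 CPM in susceptible mice. Of the susceptible mice, 4 lay above the highest control and replicate 2 among the controls. The log2 fold change was 0.89 ± 0.34 (adjusted p = 0.692) and 0.93 without replicate 3. Cldn11, the tight junction protein of myelin, differed by 0.71 ± 0.28, Mobp, a structural myelin protein, by 0.72 ± 0.33, and Omg, a glycoprotein of OLGs and neurons, by 0.38 ± 0.16. In each of these genes the groups overlapped, as they did in all 26. Opalin, a paranodal loop protein, had 16.9, 17.4, 28.1, 19.6 and 46.3 CPM in controls and 52.2, 21.7, 38.5, 52.6 and 33.4 CPM in susceptible mice, and Ermn, a cytoskeletal protein of late OLGs, had 66.6, 50.5, 83.3, 55.0 and 163 and 136, 102, 57.8, 179.6 and 145 CPM. Control replicate 5 reached the susceptible levels in both genes. Their differences of 0.63 ± 0.32 and 0.57 ± 0.37 did not reach an unadjusted p of 0.05. The same held for Cnp (0.64 ± 0.32), Mag (0.41 ± 0.39) and Mog (0.12 ± 0.42), a myelin enzyme and 2 proteins of the myelin surface.

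The spread of myelin genes between control mice was wide. The summed level of the mature OLG list was 3527 to 8018 CPM in controls and 5203 to 10970.4 CPM in susceptible mice. Without susceptible replicate 3, 7 genes of the list were higher, against 5.66% of all genes, and the median was 0.47. The OPC list had a median of 0.05, with 1 of 23 genes higher against 3.83% of all genes, Col3a1, a collagen that fibroblasts also make. The OPC list without replicate 3 had 0 genes higher and 1 lower, against 5.66% and 5.79% of all genes, with a median of -0.04. The premyelinating OLG list (12 genes, median 0.19) and the galactolipid and fatty acid enzymes (15 genes, median 0.02) had no gene at an unadjusted p under 0.05. Cholesterol synthesis and uptake had 1 of 23 higher, against 3.83% of all genes, Acat2 (0.48 ± 0.17), which acts early in the pathway. Without replicate 3 the cholesterol list had 2 higher, against 5.66%.

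In resilient B6 mice, which share the control mice with this comparison, the mature OLG list had a median log2 fold change against controls of -0.08. Susceptible mice set directly against resilient mice gave a median of 0.52 with 7 of 26 genes higher, against 4.03% of all genes. In the same contrast 8 of 10 excitatory neuron markers were lower, against 3.52% of all genes, with a median of -2.93, and the part of neighboring tissue was not tested. In susceptible DBA/2NCrl (D2) mice the list had a median of -0.62 against D2 controls, where thalamic and habenular markers had a median of -1.57 and mitochondrial genes one of -1.2. The difference between the strains' effects was positive at an unadjusted p under 0.05 in 13 of the 26 genes, against 7.35% of all genes, and 0 of 17515 genes passed the adjusted test of this interaction (smallest edgeR adjusted p = 0.0708, with 2004 genes at an unadjusted p under 0.05). DESeq2 called 223 genes and limma with voom 0. This interaction was also positive at the same threshold in 9 of 9 genes of the mitochondrial genome and 43 of 77 ribosomal protein genes. The same held for 44 of 82 nuclear genes of the respiratory chain and ATP synthase, 8 of 14 astrocyte markers and 8 of 20 chaperones. Thalamic and habenular markers had a median difference between strains of 1.45 and the mature OLG list one of 0.96. The part of these groups in the OLG values was not tested.

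**Figure D4:**
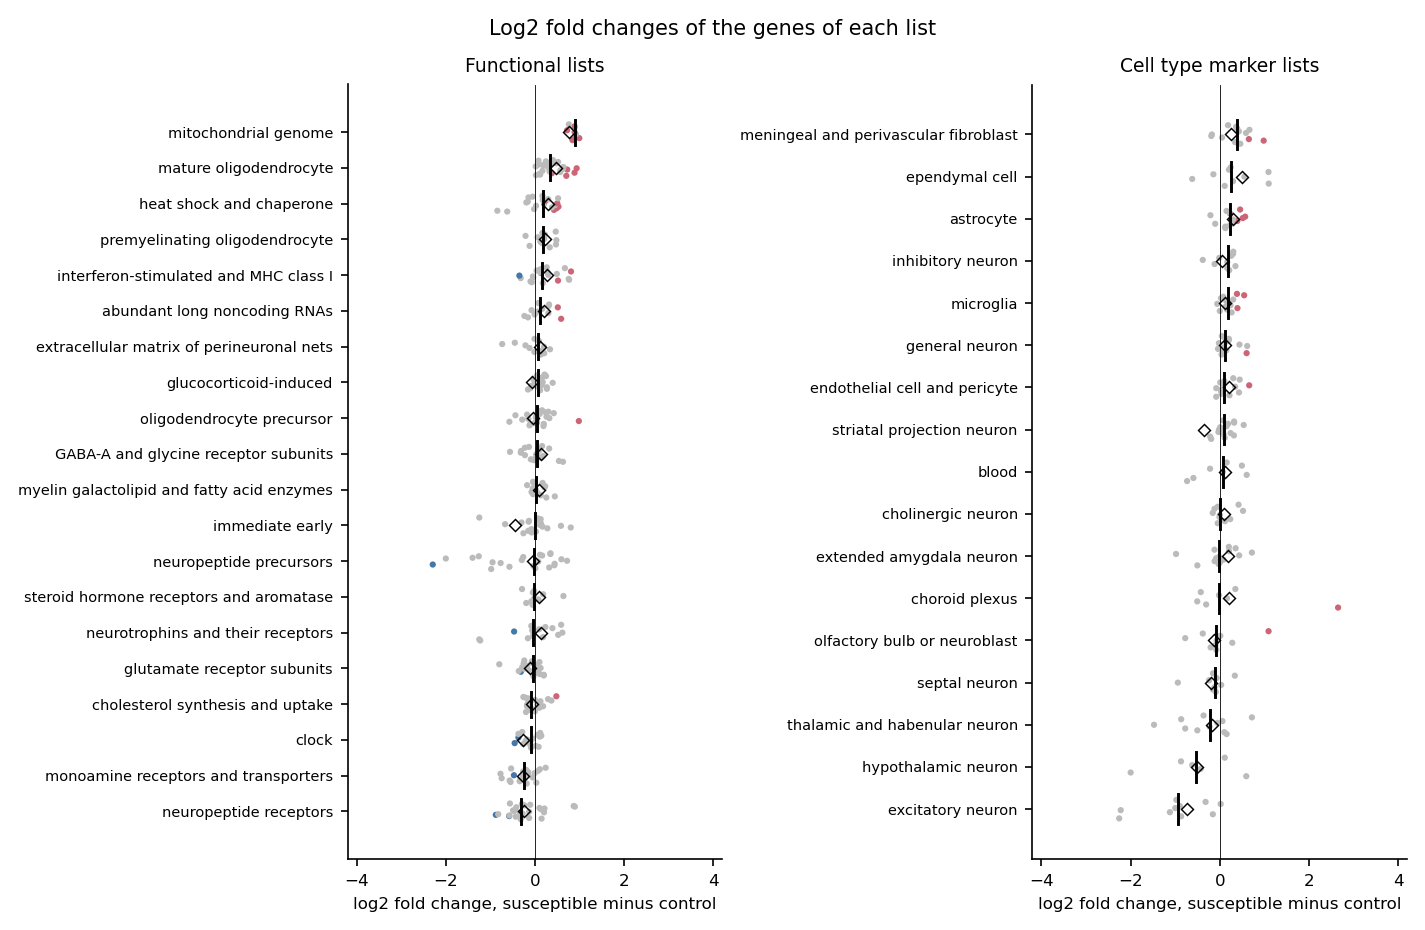
Log2 fold changes (susceptible minus control) of the genes of each list, functional lists on the left and cell type markers on the right. Points are genes, red or blue where higher or lower at an unadjusted p under 0.05. Black bars are medians over all mice and open diamonds medians without susceptible replicate 3, and the mature OLG median moved from 0.34 to 0.47.

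Chaperones fold proteins and are induced by heat shock factors or, in the endoplasmic reticulum, by unfolded protein. Of 20 heat shock and chaperone genes, 5 were higher, against 3.83% of all genes, and 0 lower, with a median of 0.19. Without replicate 3, 6 were higher, against 5.66%, with a median of 0.29. Hspe1, the co-chaperonin of mitochondria, had 25.4, 19, 26.4, 28.4 and 24.3 CPM in controls and 33.5, 37.6, 31.1, 34.8 and 37.8 CPM in susceptible mice. The groups did not overlap and the log2 fold change was 0.50 ± 0.18 (adjusted p = 0.692). Hspd1, its chaperonin partner, is transcribed in the opposite direction from the same region and differed by 0.21 ± 0.12, short of an unadjusted p of 0.05. Hsp90b1, the HSP90 of the endoplasmic reticulum, had 195, 167, 177, 218 and 172 CPM in controls and 281, 297, 144, 299 and 322 CPM in susceptible mice. Replicate 3 was the lowest of all 10 mice and the other 4 susceptible mice the highest. Hsp90aa1 (0.49 ± 0.18), Hspa8 (0.43 ± 0.17) and Hspa4 (0.24 ± 0.11), chaperones of the cytosol, completed the 5.

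The stretch before the start of Hspe1 is shown because it holds the inverted repeat read by heat shock factors. Capitals mark GAANNTTC and TTCNNGAA, which overlap here, in the RefSeq sequence of GRCm38.p6 (chr1:55088053-55088082, plus strand), which GENCODE M21 also annotates as part of an Hspd1 exon.
Hspe1: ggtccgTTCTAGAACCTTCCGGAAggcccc
One or other form occurred in the 250 bases before the start in 12.8% of 32851 mouse promoter windows. The match was a description of these letters and no binding was measured.

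The clock list had 2 of 18 genes lower, against 2.53% of all genes, and 0 higher, with a median of -0.10. Without replicate 3 the median was -0.27, again with 2 lower, against 5.79%. Per3, a repressor of the clock, had 76.7, 84.9, 63.1, 71.0 and 73.0 CPM in controls and 55.4, 55.2, 60.7, 42.5 and 55.5 CPM in susceptible mice. Tef, a transcription factor driven by the clock, had 235, 288, 221, 233 and 209.7 CPM in controls and 166, 195, 208, 163 and 186 CPM in susceptible mice. Neither gene's groups overlapped, and the log2 fold changes were -0.45 ± 0.14 and -0.37 ± 0.13 (adjusted p = 0.692 and 0.692). All mice were killed in the same morning hours. A stretch before one start of Tef is shown with the E-box CACGTG, the site of CLOCK and BMAL1, in capitals (GRCm38.p6, RefSeq, chr15:81811244-81811323, plus strand).
Tef: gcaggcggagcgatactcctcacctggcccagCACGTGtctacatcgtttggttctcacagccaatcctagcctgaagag
CACGTG occurred in 6.02% of the windows, searched over the same 250 bases, and not in that of Per3.

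Lists of neuronal signaling held few genes at an unadjusted p under 0.05. Neuropeptide receptors had 2 of 26 genes lower, against 2.53% of all genes. These were the somatostatin receptor Sstr2 (-0.88 ± 0.38, no overlap) and the nociceptin receptor Oprl1 (-0.58 ± 0.26). The median of the list was -0.30 against 0.01 over all genes, with 19 of the 26 negative and 7 positive. Its summed level was 424.8 to 495.3 CPM in controls and 392.5 to 423.9 CPM in susceptible mice, ranges that nearly touched but did not overlap. Without replicate 3, 1 receptor was lower, against 5.79% of all genes, and the median was -0.23. Among 22 peptide precursors tested, 1 was lower, against 2.53% of all genes. Cort (cortistatin), the lower gene, was at 0.796, 0.597, 0.511, 0.225 and 0.363 CPM in controls and 0, 0, 0.296, 0.134 and 0 CPM in susceptible mice. In susceptible replicates 1, 2 and 5 there was no read of Cort, and the levels of all 10 mice were under 1 CPM. Crh, which encodes the stress peptide corticotropin-releasing hormone, had 6.44, 5.17, 1.53, 3.01 and 1.33 CPM in controls and 1.8, 2.85, 0.355, 2.08 and 1.85 CPM in susceptible mice, a log2 fold change of -0.98 ± 0.76 within the spread between mice. The monoamine list had 1 of 22 genes lower, Adra1a (-0.47 ± 0.20, no overlap), an adrenergic receptor. Grik3 (-0.31 ± 0.15), a kainate receptor subunit, and Gfra1 (-0.47 ± 0.17), the GDNF receptor, were the 1 lower gene each of lists of 22 and 15. These counts also stood against 2.53% of all genes. In the monoamine list 18 of the 22 genes had a negative log2 fold change and 4 a positive one, with a median of -0.24. Its summed levels overlapped, at 514 to 858 CPM in controls and 544 to 936 CPM in susceptible mice. Without replicate 3 the monoamine, glutamate receptor and neurotrophin lists had 2 genes lower each, of 22, 22 and 15, against 5.79% of all genes.

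The steroid receptor, GABA-A and glycine receptor, glucocorticoid-induced, immediate early and perineuronal net lists had 0 genes at an unadjusted p under 0.05. Without replicate 3 the GABA-A and glycine receptor list had 2 of 20 genes higher and 1 lower, with the median moving from 0.04 to 0.15. The perineuronal net list then had 1 of 13 higher. These counts stood against 5.66% of all genes higher and 5.79% lower. Fkbp5, a co-chaperone induced by glucocorticoids, had 24.6, 26.4, 25.1, 28.2 and 18.7 CPM in controls and 16.6, 23.4, 46.2, 21.8 and 25.1 CPM in susceptible mice. Replicate 3 was the highest of the 10 mice and the others were mixed. Fos, the activity-induced transcription factor, was between 1.86 and 5.68 CPM in controls and between 0.154 and 5.16 CPM in susceptible mice. The immediate early median of 0.00 became -0.44 without replicate 3, with 1 of 20 genes lower, against 5.79% of all genes.

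Mitochondrial transcripts were the most abundant group to differ. Of 9 genes of the mitochondrial genome that passed the filter, of 15 listed, 6 were higher, against 3.83% of all genes, with a median of 0.89. The subunit of cytochrome oxidase mt-Co1 had 3294, 5454, 6513, 8224 and 4874 CPM in controls and 8899.7, 8576, 9660.4, 9944 and 9699.8 CPM in susceptible mice. All susceptible mice lay above all controls, and mt-Co1 was the one member of the list without overlap. The NADH dehydrogenase subunits mt-Nd1 (0.84 ± 0.38), mt-Nd2 (0.996 ± 0.45), mt-Nd4 (0.92 ± 0.35) and mt-Nd6 (0.89 ± 0.43) and the rRNA mt-Rnr1 (0.89 ± 0.40) were the others, while mt-Rnr2 differed by 0.76 ± 0.38. Without replicate 3, 2 of the 9 were higher, against 5.66%, and the median was 0.77. Set against resilient mice, 0 of the 9 were higher, against 4.03% of all genes, with a median of 0.41. Resilient mice had a median of 0.38 against the same controls.

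Nuclear genes of cytosolic ribosomes and of the respiratory chain were counted by symbol, with lists chosen after the data were seen. The respiratory chain list also takes in subunits of ATP synthase, among them Atp5h, which was already named above by its p. Of 77 cytosolic ribosomal protein genes, 25 were higher, against 3.83% of all genes, and 0 lower, with a median of 0.44. Without replicate 3 the numbers were 14 and 2, against 5.66% and 5.79% of all genes, with a median of 0.20. Nuclear subunits of the respiratory chain had 22 of 82 higher, against 3.83%, and 0 lower (median 0.34). Without replicate 3, 18 of them were higher and 1 lower, against 5.66% and 5.79% (median 0.15). Set against resilient mice, 4 of the 77 and 7 of the 82 were higher, against 4.03% of all genes, with medians of 0.17 and 0.15. Resilient mice had medians of 0.22 and 0.18 against the same controls. Both lists include short mRNAs. Over all coding genes, those with up to 1000 exon bases had a median log2 fold change of 0.30 and 15.5% were higher, those of 1000 to 2000 bases a median of 0.13, and those of 4000 to 8000 bases a median of -0.02. Without replicate 3 the medians of these 3 length classes were 0.12, 0.02 and -0.04. Of the genes with up to 1000 exon bases, 13.1% were then higher and 2.38% lower, against 5.66% and 5.79% of all genes. Members of the 2 lists were not taken out of these classes. The part of length in the 2 lists was not tested, nor was the part of the lists in the length classes.

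**Figure D5:**
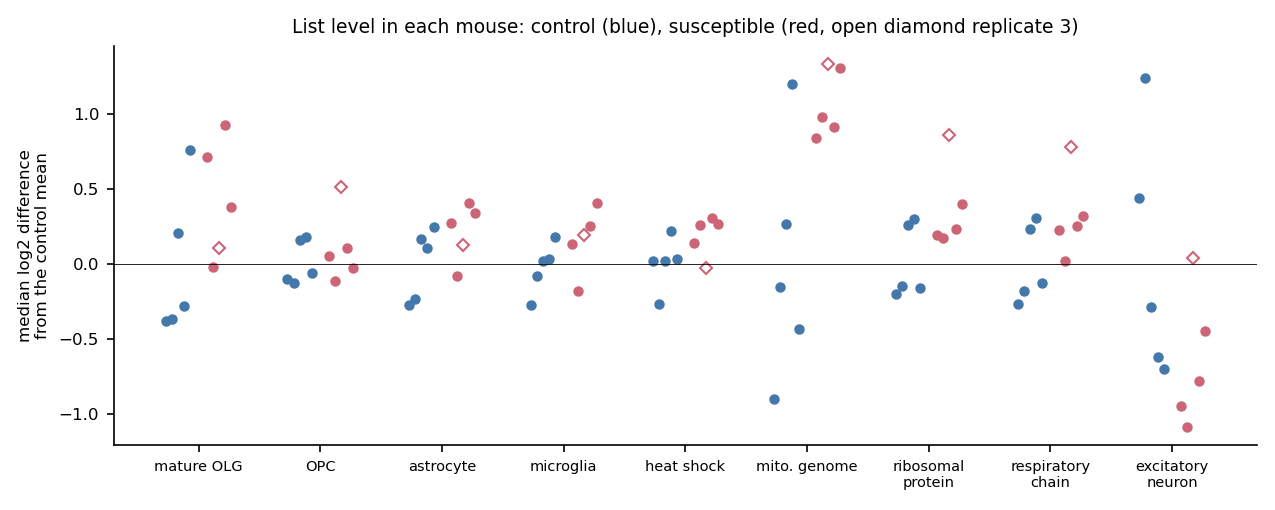
Level of 9 lists in each mouse, as the median over genes of the log2 difference from the control mean, control in blue and susceptible in red. Replicate 3 (open diamond) is the highest of the 10 mice for ribosomal proteins and the respiratory chain, and the mature OLG genes spread widely within both groups.

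Among immune genes, B2m, the light chain of MHC class I, had 47.0, 48.6, 64.7, 68.8 and 58.9 CPM in controls and 102, 102, 62.8, 105 and 133 CPM in susceptible mice. Replicate 3 lay within the control range and the other 4 above it, at a log2 fold change of 0.81 ± 0.21 overall. Ifi27 (0.52 ± 0.25), induced by interferon, was also higher, and Stat2 (-0.35 ± 0.15), which carries the interferon signal to the nucleus, was lower in every susceptible mouse than in any control. With all mice the list of interferon and MHC genes had 2 of 20 higher and 1 lower, against 3.83% and 2.53% of all genes. Without replicate 3 it had 3 higher and 1 lower, against 5.66% and 5.79%. Of 14 microglial markers 3 were higher, against 3.83% of all genes, Itgam (0.55 ± 0.21), Ctss (0.39 ± 0.15) and P2ry12 (0.40 ± 0.16). Their number without replicate 3 was also 3, against 5.66%.

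Of 14 astrocyte markers 5 were higher, against 3.83% of all genes, and 0 lower, with a median of 0.23. Without replicate 3, 3 were higher, against 5.66%, and the median was 0.30. The glutamate transporter Slc1a3 had 324, 353, 389, 378 and 309 CPM in controls and 523, 442, 366, 463 and 511 CPM in susceptible mice. It was above the control range in all but replicate 3. Glul (0.57 ± 0.22), which makes glutamine, S100b (0.52 ± 0.24), F3 (0.46 ± 0.16) and the bicarbonate transporter Slc4a4 (0.24 ± 0.11, no overlap) were the others. The summed level of the list was 3761 to 6022 CPM in controls and 5371 to 7196 CPM in susceptible mice.

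The inhibitory neuron list that marks BNST neurons, with 10 genes, summed to 1468 to 1950.2 CPM in controls and 1674 to 2121 CPM in susceptible mice, and all its genes were detected. Markers of neighboring tissue varied between mice. Of 10 excitatory neuron markers 9 were lower, with a median of -0.93, and 0 passed an unadjusted p of 0.05. Without replicate 3, 1 of them passed as lower, against 5.79% of all genes (median -0.73). Slc17a7, the vesicular glutamate transporter of cortex, had 33.3, 110.4, 3.70, 10.4 and 19.6 CPM in controls and 2.08, 1.69, 22.1, 6.78 and 3.93 CPM in susceptible mice. A single control mouse reached 110 CPM, and the resilient mice ranged from 3.84 to 514 CPM. Ttr, which choroid plexus makes in quantity, was at most 2.54 CPM in controls and 1.87, 0.534, 23.2, 7.86 and 5.09 CPM in susceptible mice, with 5 of the 12 choroid plexus genes under the filter. Fibroblast markers had Dcn (0.65 ± 0.24, no overlap) and Col3a1 (0.99 ± 0.40) higher of 13, and endothelial and pericyte markers Ly6c1 (0.66 ± 0.24) of 14. General neuron markers had Snap25 (0.60 ± 0.26) higher of 14, and the neuroblast list Top2a (1.10 ± 0.51), a gene of dividing cells, of 9. These counts stood against 3.83% of all genes, and no change of a cell type is read from 1 gene. Inhibitory neuron, extended amygdala, striatal, septal, thalamic, cholinergic, hypothalamic, ependymal and blood markers had 0 genes at an unadjusted p under 0.05, and the part of dissection in the values above was not tested. Striatal markers summed to 14834 CPM in replicate 3 against 4959 to 6231 CPM in the other susceptible mice and 4554 to 9694 CPM in controls. Without replicate 3 their median moved from 0.09 to -0.36, with 1 of 17 lower, against 5.79% of all genes. Without that mouse 1 of 9 ependymal and 3 of 14 endothelial and pericyte markers were higher, against 5.66% of all genes. Of 7 choroid plexus markers 0 were then higher, 1 before, and 1 fibroblast marker was lower, against 5.79%, beside the 2 higher. Of the abundant long noncoding RNAs, Malat1 (0.59 ± 0.23), a nuclear RNA, and Pantr1 (0.51 ± 0.19) were higher of 12, against 3.83% of all genes. Without replicate 3, 1 was higher, against 5.66%.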

How the data were processed

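Male B6 BNST tissue was sequenced as total RNA depleted of rRNA (InDA-C primers, Ovation Universal kit). The authors trimmed reads (FastX toolkit), removed duplicates (PRINSEQ), aligned to GRCm38 (STAR) and counted reads on gene exons (HTSeq), and the deposited table holds raw counts per gene, without normalization despite its name. Tables of the other 2 regions were not used. From the counts, edgeR 4.0.16 (R 4.3.3) fitted 28 libraries in 6 groups with TMM factors, a robust quasi-likelihood model and a filter of 1 CPM in 6 libraries. P-values were adjusted by Benjamini-Hochberg. DESeq2 1.42.0, limma 3.58.1 with voom, other scalings, batch terms (library set, sequencing set, mouse ID prefix) and leaving out each mouse were tried. The code was tested on simulated data. Symbols and coordinates came from GENCODE M21, which matched 99.7% of genes tested. Intervals cover the spread between mice.

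Named genes were the 10 smallest p-values in each direction among named genes with a mean log2 CPM of at least 1, the 3 highest and 3 lowest products of fold change and -log10 p, up to 3 members of each list by p, first markers of cell type lists, and Opalin, Ermn and Mobp. Not every list member that the rule allows is named. Auh, Cnp, Fkbp5, Fos, Hspa4, Hspa8, Hspd1, Mag, Mog, Omg, S100b, Scoc, Slc4a4, mt-Nd1, mt-Nd2, mt-Nd6 and mt-Rnr2 were chosen after their values were seen. The comparison and the lists were chosen with earlier results of these data known. The leave-out of replicate 3 with library set as a term, ComBat and the lists by symbol were added after seeing the data. Some genes are not reported here.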

Additional observations from a re-analysis of the deposited data

Results flagged for a closer look

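In the groups of 5 mice tested for 1 distant value, 17 of 168 were flagged. The test flags about 1 in 20 independent groups by chance. These groups shared the same libraries and many of their genes were picked by p, so 17 cannot be set against that rate. Scoc and Auh were named because they passed without replicate 3, so its distance in them follows partly from that choice. Susceptible replicate 3 was the distant mouse in 9 of the 17 flagged groups, each time the lowest, with Muc16 at 0.651 CPM, Rac1 at 199.6, Scoc at 30.4, Auh at 29.5, Hspd1 at 56.2, Hsp90b1 at 143.9, Hspa4 at 137.5, Ifi27 at 6.75 and Crh at 0.355 CPM. The same library had the most reads and the largest share of mitochondrial rRNA of the 10, and the part of either in these values was not tested.

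Among the other susceptible mice, Per3 was lowest in replicate 4 at 42.5 CPM and Fos lowest in replicate 5 at 0.154 CPM. Among controls, Atp5h was highest in replicate 4 at 61.5 CPM, Ly6c1 highest in replicate 4 at 50.4 CPM, Auh highest in replicate 5 at 53.3 CPM, Itgam highest in replicate 5 at 8.59 CPM, Scoc lowest in replicate 5 at 48.9 CPM and Stat2 lowest in replicate 1 at 19.7 CPM.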

How the results depend on the processing

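The count of 0 genes held under every alternative except without susceptible replicate 3, alone or with library set as a term, where 2 genes passed (range over single mice left out, 0 to 2). At an unadjusted p under 0.05, the counts higher and lower were 1723 and 1043 with no filter, 106 and 2248 with library totals alone, and 1030 and 1005 without replicate 3 and with library set as a term. Leaving out single mice gave 419 to 989 higher and 283 to 1012 lower, with 419 and 283 without control replicate 2. Susceptible against resilient mice gave 0 genes with a mean log2 CPM of at least 1, with limma or with only the 15 B6 libraries, 42 with DESeq2, and 0 to 9 with single mice left out. The interaction gave 223 genes with DESeq2, 1416 with library totals alone, 4 with mouse ID prefix as a term, and 0 to 111 with single mice left out, 111 without control replicate 4 and 26 without susceptible replicate 3. The mitochondrial rRNA share differed by 3.8 to 6.75 percentage points with single mice left out, and the share of all mitochondrial genes by 8.94 (exact permutation p = 0.0397). Without susceptible replicate 3 these exact permutation p-values were 0.127 for the rRNA and 0.0714 for all mitochondrial genes. The TMM difference was -0.223 to -0.115, and that of library totals ranged from -208646 reads, without susceptible replicate 3, to 3283390. With library totals alone the log2 fold change was -0.20 for Fkbp5, -0.0021 for Hspa4, -0.026 for Hspd1, -0.13 for Mog and -0.0065 for Slc4a4. With single mice left out, Mog ranged from -0.060 to 0.48, Fkbp5 from -0.18 to 0.25 and Fos from -0.51 to 0.047. The cause was not tested. No paired analysis was possible because no mouse was sampled in both groups and replicate numbers only follow the accession order. The depth of 11825757 reads or more leaves genes under 1 CPM with few reads each.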
